A study of Homo sapiens with 72 samples.

Results

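The collagen chain genes are the genes whose symbol has the form COL, a type number, A and a chain number, such as COL1A1 for the first chain of type I collagen. Every probe annotated with such a symbol on the arrays was taken, which gave 68 probes for 42 genes out of 41000 probes. Of these, 65 carried the symbol on all arrays and 3 only in the annotation used for the 0.5 h arrays. A probe was kept where at least 90% of its spots were well above background, which left 48 probes for 29 genes, against 25334 of 41000 for all probes, which carried 18396 of 30142 gene names. The rule itself uses names and detection and no measured response to irradiation. COL5A3, just inside the limit, reached 97.2% of its spots. COL9A1, just outside it, reached 88.9%, and COL10A1 and COL21A1 reached 87.5%.

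Collagens are the triple-helical proteins of the extracellular matrix. Each molecule winds 3 alpha chains around each other, and each chain repeats a Gly-X-Y triplet, because only glycine is small enough to sit on the axis of the helix. Fibrillar types I, III and V form the banded fibrils of lung interstitium, with type V at the core where it limits fibril diameter. Type VI forms beaded filaments, type IV the network of basement membranes, and type VII the anchoring fibrils that tie an epithelial basement membrane to the stroma. The FACIT types (fibril-associated collagens with interrupted triple helices) decorate fibrils, and the multiplexins XV and XVIII lie at basement membrane zones. Fibroblasts are the main source of the interstitial types.

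RNA was measured in IMR-90 cells, a normal human lung fibroblast strain used at early passage, in a Mylar-bottomed dish of which strips were shielded from α-particles. Cells on the thin base received 0.5 Gy of 4He ions (irradiated), cells on the shielded strips of the same dish did not (bystander), and separate sham-exposed dishes served as controls, so treatment and dish cannot be told apart in any comparison with control. The 3 groups were collected at 0.5, 1 and 2 h and at 4, 6 and 24 h in 4 independent experiments, which gave 72 one-color arrays, 1 for each group, time and experiment. The irradiated, bystander and control cells of an experiment came from 1 pool of cells, so ratios are paired by experiment unless compared within slides, with n = 4 except where a non-uniform spot left a value missing.

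The 12 arrays of a time lay on 3 slides of 4, and the control of experiment 2 was always on another slide than the irradiated and bystander arrays of that experiment. The bystander array of experiment 4 at 0.5 h and of experiment 3 at the later times was also on another slide than its control, so each bystander comparison crossed slides in 2 of 4 experiments. The share of spots above background by this measure ran from 65.7% to 76.9% of an array. All 8 fibroblast markers (VIM, THY1, PDGFRA, PDGFRB, FAP, DCN, LUM, S100A4) were detected on every array, the highest intensity being that of DCN, the fibril-binding proteoglycan decorin. The epithelial markers CDH1 and KRT5, the endothelial marker PECAM1 and the leukocyte marker PTPRC passed on only 1.67%, 1.39%, 2.78% and 0.556% of spots. CDH5 passed on 16.7% and EPCAM on 61.1%, while KRT19, SFTPC, SCGB1A1, VWF, TEK, CD14, CD68 and CD3E passed on all arrays. In bulk RNA, fewer cells of a type and less RNA per cell cannot be told apart.

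The Gly-X-Y repeat can be read in the probes themselves. A search of the 48 deposited probe sequences for a glycine codon (GGN) in every 9 bases found 3 probes of 60 bases that held an unbroken run, and they are shown because they make the defining motif of the family visible. In each, all 6 codons at that spacing were GGN, here in capitals, with the 2 codons between them coding X and Y:
COL3A1: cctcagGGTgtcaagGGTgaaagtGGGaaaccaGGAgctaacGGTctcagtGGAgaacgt
COL4A1: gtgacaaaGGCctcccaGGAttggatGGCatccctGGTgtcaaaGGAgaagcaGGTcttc
COL4A5: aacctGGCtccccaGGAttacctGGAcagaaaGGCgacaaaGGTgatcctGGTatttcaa
COL3A1 is a fibrillar chain and COL4A1 and COL4A5 are basement membrane chains. The glycine codons recur every 9 bases in all 3, from base 7, 9 and 6 of the probe, while the bases of the X and Y codons differ between them. The COL3A1 probe (2 of 3 for that gene in order of intensity) had log2 ratios to control from -0.91 to -0.34 over the 12 comparisons (2 treatments against control at 6 times), while the COL4A1 probe ranged from -0.34 to 0.26 and the COL4A5 probe from -0.31 to 0.16.

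Collagen RNA lay mostly below the control level in both kinds of exposed cells. A small number of chains passed the test, at 0.5 h in both and at 2, 6 and 24 h in irradiated cells, with COL7A1 above the control level throughout. At 0.5 h the median log2 ratio of the 48 probes (log2 of the exposed over the control intensity, after each array was brought to the same 75th percentile) was -0.32 in irradiated and -0.25 in bystander cells, with 42 and 37 of the 48 below 0. Over all probes the medians at that time were -0.03 and 0.00. At 6 h the collagen medians were -0.27 and -0.24, with 36 and 40 of 48 below 0. They were smaller at 2 h, at -0.09 in both, and the values at 1, 4 and 24 h were -0.26, -0.13 and -0.09 in irradiated and -0.16, -0.16 and -0.16 in bystander cells. Over all times and both treatments 23 of 48 probes (47.9%) were below 0 in 12 of 12 comparisons, against 17.3% of all probes tested, and 1, COL7A1, was above 0 in 12 of 12, against 14.9%. By gene, 11 of 29 (37.9%) were below 0 in 12 of 12 with every kept probe, while the shares of all probes are by probe. The 12 comparisons share controls within a time, so these counts are a description.

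**Figure D1:**
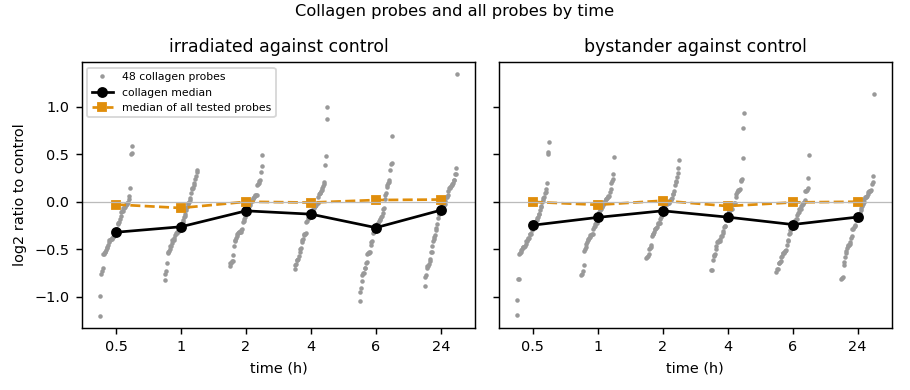
Log2 ratio to control (vertical axis) against time in hours for irradiated cells (left) and bystander cells (right), with grey points for the 48 collagen probes (mean of 4 experiments), black circles for their median and orange squares for the median of all probes tested. The collagen median lies below that of all probes at each of the 6 times in both panels, from -0.09 to -0.32 in irradiated cells, and the highest points at 24 h are COL7A1.

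Those levels are relative to the other probes of an array. Without scaling between arrays the median ratio of all probes itself moved, from -0.38 at 2 and 24 h to 0.17 at 1 h in irradiated cells and from -0.26 at 2 h to 0.42 at 4 h in bystander cells. The unscaled collagen median then turned to 0.03 at 1 h and 0.30 at 4 h in bystander cells, where 23 and 7 of 48 probes were below 0, and it stayed below the median of all probes at both times (0.16 and 0.42). The direction of the list at those times therefore holds only relative to the rest of the array. Unscaled, 6 of 48 probes were below 0 in 12 of 12 comparisons (5.22% of all probes). The number was 18 with quantile normalization (16.2% of all probes) and 19 with normexp background correction (11.4%). COL5A1 by both probes stayed below 0 and COL7A1 above 0 in 12 of 12 unscaled, and did so also with quantile normalization, with normexp background correction and in the authors' table.

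A probe was called where limma's moderated test, adjusted by the Benjamini-Hochberg method over all probes tested, gave an adjusted p below 0.10. In irradiated cells 7 of 48 collagen probes were called at 0.5 h (5 lower, 2 higher), where 9.84% of all probes were called (4.1% lower, 5.74% higher). At 2 h 1 collagen probe was called, lower, against 5.73% of all probes (2.66% lower, 3.06% higher). At 6 h 4 were called, all lower, against 10.6% (5.68% lower, 4.87% higher), and at 24 h 1, higher, against 0.174% (0.0593% lower, 0.115% higher). At 1 and 4 h none was called, with 0% and 0.971% of all probes called and with 8 and 10 collagen probes at an unadjusted p under 0.05. In bystander cells 5 were called at 0.5 h (3 lower, 2 higher) against 6.83% of all probes (2.68% lower, 4.15% higher). None was called at 1, 2, 4, 6 or 24 h, where 0%, 0.233%, 0.573%, 0.277% and 0% of all probes were called (lower alone 0%, 0.0237%, 0.0987%, 0.0711% and 0%) and 7, 9, 9, 7 and 13 collagen probes had an unadjusted p under 0.05. The calls rest on few arrays. With experiments 1, 2, 3 and 4 left out in turn, the collagen probes called at 0.5 h numbered 2, 0, 3 and 2 in irradiated and 0, 0, 2 and 5 in bystander cells. Over all probes the shares called then were 1.95%, 0%, 5.64% and 1.36% in irradiated and 0.0119%, 0%, 4.55% and 2.51% in bystander cells, so the loss without experiment 2 was that of the whole array. Without the pairing by experiment no collagen probe was called at any time, where at most 0.162% of all probes were. Compared within slides, which sets 1 or 2 arrays against 1 or 2 and in part arrays of different experiments, without the pairing, the differences behind the 18 calls kept their sign on each of 3 slides except that of COL11A2 in bystander cells, and with slide as a further block 8 of the 18 still passed.

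**Figure D2:**
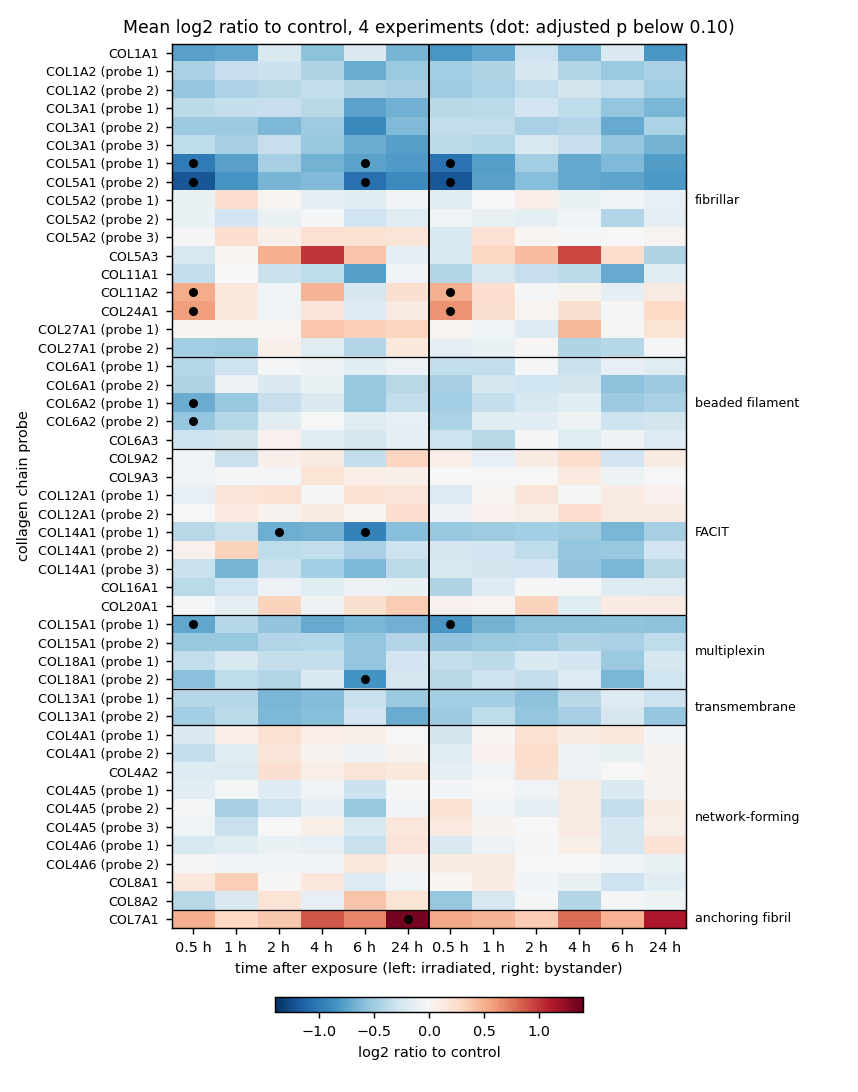
Mean log2 ratio to control over 4 experiments for each of the 48 collagen probes (rows, grouped by class) at the 6 times in irradiated cells (left columns) and bystander cells (right columns), blue for lower and red for higher, with a black dot where limma's adjusted p was below 0.10. Most fibrillar, multiplexin and transmembrane rows are blue on both sides, the network-forming rows are pale, and COL7A1 is red in every column, up to 1.34 at 24 h.

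COL5A1, the major chain of the fibril-nucleating type V collagen, fell at 0.5 h in both treatments, by both of its probes. Probe 2 read 11.90, 12.19, 11.85 and 11.35 (log2 intensity, experiments 1 to 4) in the control dishes. It read 11.26, 10.53, 10.70 and 10.01 in irradiated cells and 11.27, 10.27, 10.30 and 10.70 in bystander cells. Every exposed array lay below every control array. The log2 ratio was -1.20 (SE 0.22, 2.29-fold lower, adjusted p = 0.033) in irradiated and -1.19 (2.28-fold lower, adjusted p = 0.031) in bystander cells. Probe 1, the more intense, read 13.70, 13.85, 14.26 and 13.49 in controls, 13.14, 13.18, 12.77 and 12.25 in irradiated and 13.06, 12.95, 12.54 and 12.62 in bystander cells, again with no overlap. Its ratios were -0.99 (SE 0.18, adjusted p = 0.033) and -1.04 (adjusted p = 0.028). Within slides, unpaired, the differences of both probes at 0.5 h were below 0 on each of 3 slides, from -1.16 to -0.78 for probe 2 in irradiated cells.

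At 6 h both probes were lower again in irradiated cells. Probe 1 read 13.57, 13.07, 13.41 and 13.81 in the control dishes, 13.04, 12.94, 12.65 and 12.25 in irradiated cells and 12.97, 13.03, 12.63 and 12.77 in bystander cells. Probe 2 read 11.77, 11.03, 11.80 and 12.24 in the control dishes, 10.99, 10.96, 10.54 and 10.20 in irradiated cells and 11.30, 10.98, 10.84 and 10.77 in bystander cells. The irradiated arrays lay below all controls for both probes, while among the bystander arrays those of probe 1 did and those of probe 2 overlapped the controls. The ratios in irradiated cells were -0.75 (adjusted p = 0.069) and -1.04 (adjusted p = 0.057), 1.68-fold and 2.06-fold lower. In bystander cells they were -0.62 and -0.74 (adjusted p = 0.25 and 0.269), which did not pass. Over the 12 comparisons the probes ranged from -1.04 to -0.47 and from -1.20 to -0.59. Each call was lost without at least 1 experiment: at 0.5 h always without experiment 2, and at 6 h without experiment 1, 3 or 4. The ratio of probe 2 with 1 experiment left out ran from -1.38 to -1.04 at 0.5 h and from -1.36 to -0.71 at 6 h in irradiated cells, and that of probe 1 from -1.13 to -0.82 and from -0.95 to -0.48.

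The ratios of COL5A2, which joins COL5A1 in the type V trimer, lay nearer to 0. At 0.5 h its most intense probe read 15.90, 15.89, 15.78 and 15.58 in the control dishes, 15.70, 15.90, 15.69 and 15.49 in irradiated cells and 15.55, 15.86, 15.63 and 15.49 in bystander cells. The groups overlapped, and the ratios were -0.09 in irradiated cells (adjusted p = 0.644) and -0.16 in bystander cells (adjusted p = 0.464). Probe 2 read 14.11, 14.33, 13.63 and 13.63 in the control dishes, 13.79, 14.09, 13.80 and 13.63 in irradiated cells and 14.06, 13.71, 13.75 and 13.97 in bystander cells. Probe 3 read 8.86, 8.79, 8.15 and 8.91 in the control dishes, 8.58, 8.86, 8.16 and 8.99 in irradiated cells and 8.51, 8.91, 7.78 and 8.65 in bystander cells. None of the 3 separated the groups, with ratios from -0.21 to -0.03. At 6 h probe 1, with the control of experiment 1 missing for a non-uniform spot, read 15.86, 15.68 and 15.51 in the control dishes, 15.78, 15.79, 15.73 and 15.09 in irradiated cells and 15.66, 15.75, 15.71 and 15.45 in bystander cells. Its ratios were -0.12 in irradiated cells (adjusted p = 0.654) and -0.07 in bystander cells (adjusted p = 0.839), and the groups overlapped. Probe 2 read 14.42, 13.80, 13.74 and 14.14 in the control dishes, 13.74, 13.93, 13.95 and 13.35 in irradiated cells and 14.21, 13.53, 13.70 and 13.005 in bystander cells. Probe 3 read 9.61, 9.89, 9.23 and 8.48 in the control dishes, 9.85, 9.87, 9.47 and 8.85 in irradiated cells and 9.67, 9.67, 9.23 and 8.61 in bystander cells. They had ratios of -0.28 and 0.21 in irradiated cells and -0.41 and -0.01 in bystander cells, with overlapping groups. Over 20 irradiated ratios of single experiments and times, COL5A1 and COL5A2 differed by a median of 0.75 on the log2 scale, against 0.22 between the probes of COL5A1 over 24. Between the 3 probes of COL5A2 the median differences were 0.18 to 0.29. Their ratios did not track each other, with a Pearson r from -0.09 to 0.15, against 0.89 for the probes of COL5A1. The difference between the genes was not tested.

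The chains of type I and type III collagen, the bulk of interstitial fibrils, were below control at 0.5 h without passing the test. COL1A1 read 17.09, 17.13, 18.05 and 17.19 in the control dishes, 16.72, 17.24, 16.71 and 15.73 in irradiated cells and 16.62, 16.996, 16.66 and 15.94 in bystander cells. The bystander arrays lay below all controls, while the irradiated array of experiment 2 (17.24) lay among them. The ratios were -0.76 in irradiated cells (adjusted p = 0.107) and -0.81 in bystander cells (adjusted p = 0.109). COL1A2, the other chain of type I, read 17.90, 17.69, 18.14 and 17.96 in the control dishes, 17.65, 17.39, 17.12 and 17.72 in irradiated cells and 17.68, 17.25, 16.69 and 18.17 in bystander cells with its more intense probe. The bystander array of experiment 4 (18.17) was above every control, and the ratios were -0.45 in irradiated cells (adjusted p = 0.246) and -0.47 in bystander cells (adjusted p = 0.265). With probe 2 it read 10.73, 10.88, 10.78 and 10.87 in the control dishes, 10.24, 10.35, 9.88 and 10.63 in irradiated cells and 10.45, 10.20, 9.46 and 11.18 in bystander cells, where the irradiated arrays alone lay below all controls, with ratios of -0.54 and -0.49 (adjusted p = 0.141 and 0.198).

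COL3A1, the chain of homotrimeric type III, was likewise read below control by 3 probes at 0.5 h and did not pass the test. Probe 1 read 17.31, 17.09, 17.40 and 17.48 in the control dishes, 16.94, 16.74, 16.91 and 17.21 in irradiated cells and 17.04, 16.56, 16.48 and 17.66 in bystander cells. Probe 2, whose sequence is printed above, read 14.51, 14.72, 14.72 and 14.69 in the control dishes, 14.04, 14.03, 14.29 and 14.24 in irradiated cells and 14.44, 13.63, 14.01 and 15.19 in bystander cells. Probe 3 read 14.80, 14.66, 14.49 and 14.69 in the control dishes, 14.36, 14.38, 14.05 and 14.41 in irradiated cells and 14.43, 14.18, 13.79 and 14.70 in bystander cells. The irradiated array was below its own control in 4 of 4 experiments for each probe, and the bystander array in 3 of 4, with experiment 4 above. The ratios were -0.37, -0.51 and -0.36 in irradiated cells (adjusted p = 0.231, 0.195 and 0.138) and -0.39, -0.34 and -0.38 in bystander cells (adjusted p = 0.25, 0.398 and 0.147).

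At 6 h the experiments disagreed for these chains. COL1A1 read 17.35, 16.93, 16.49 and 16.81 in the control dishes, 17.002, 16.94, 16.51 and 16.31 in irradiated cells and 16.99, 16.95, 16.12 and 16.71 in bystander cells. COL1A2 probe 1 read 18.55, 17.41, 17.93 and 17.99 in the control dishes, 17.22, 17.23, 18.17 and 16.47 in irradiated cells and 17.46, 17.37, 18.24 and 16.74 in bystander cells. Its probe 2 read 11.44, 10.77, 10.74 and 11.09 in the control dishes, 10.67, 10.57, 11.21 and 9.88 in irradiated cells and 11.07, 10.42, 11.31 and 9.88 in bystander cells. The groups overlapped for both genes. COL3A1 probe 1 read 18.03, 16.63, 17.24 and 17.37 in the control dishes, 16.54, 16.39, 17.55 and 15.81 in irradiated cells and 16.86, 16.60, 17.62 and 16.05 in bystander cells. In experiment 3 the irradiated and bystander values of COL1A2, and of COL3A1 by probe 1, were above their control, while in experiments 1 and 4 they were mostly below by over 0.5. COL3A1 probe 2 read 14.90, 13.87, 14.85 and 15.23 in the control dishes, 13.76, 13.55, 14.65 and 13.26 in irradiated cells and 14.36, 13.61, 14.92 and 13.12 in bystander cells. Probe 3 read 15.51, 13.87, 14.22 and 14.82 in the control dishes, 13.69, 14.01, 14.81 and 13.12 in irradiated cells and 14.67, 13.80, 14.71 and 13.09 in bystander cells. Experiment 4 was again the lowest in the exposed cells, and all groups overlapped. None passed the test, the ratios running from -0.91 (COL3A1 probe 2 in irradiated cells, adjusted p = 0.103) to -0.20 (COL1A1 in bystander cells, adjusted p = 0.525).

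Of the 3 chains of type VI collagen, whose filaments lie around cells, COL6A2 fell in irradiated cells at 0.5 h. Its more intense probe read 14.13, 13.97, 14.20 and 14.04 in the control dishes, 13.23, 13.08, 13.51 and 13.72 in irradiated cells and 13.72, 12.71, 13.54 and 14.46 in bystander cells. The irradiated arrays lay below all controls and the bystander array of experiment 4 (14.46) above them. The ratios were -0.70 in irradiated cells (adjusted p = 0.098) and -0.48 in bystander cells (adjusted p = 0.23). Probe 2 read 11.01, 10.94, 11.73 and 11.80 in the control dishes, 10.48, 10.20, 10.79 and 11.83 in irradiated cells and 10.74, 10.13, 10.89 and 11.95 in bystander cells, with overlapping groups and 3 of 4 experiments lower. Its ratios were -0.54 in irradiated cells (adjusted p = 0.097) and -0.44 in bystander cells (adjusted p = 0.168). Both calls were lost whichever experiment was left out, with ratios from -0.82 to -0.63 and from -0.74 to -0.41. COL6A1 probe 1 read 17.81, 17.52, 18.90 and 18.22 in the control dishes, 17.45, 17.77, 17.75 and 17.87 in irradiated cells and 17.33, 17.59, 17.80 and 18.35 in bystander cells. Its probe 2 read 9.27, 8.86, 9.09 and 9.11 in the control dishes, 8.37, 8.08, 8.69 and 9.52 in irradiated cells and 8.60, 7.89, 8.28 and 9.71 in bystander cells. COL6A3 read 16.63, 16.51, 16.60 and 16.31 in the control dishes, 16.27, 16.46, 16.15 and 16.03 in irradiated cells and 16.20, 16.15, 16.04 and 16.49 in bystander cells. Groups overlapped for both genes, and their ratios from -0.46 to -0.29 did not pass (adjusted p from 0.278 to 0.41).

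At 6 h none of the type VI chains passed the test. COL6A1 probe 1 read 18.13, 17.87, 18.16 and 17.91 in the control dishes, 17.76, 17.64, 18.44 and 17.61 in irradiated cells and 17.40, 17.92, 18.36 and 17.93 in bystander cells. Its probe 2 read 8.93, 8.57, 9.71 and 9.50 in the control dishes, 8.51, 8.57, 9.27 and 8.26 in irradiated cells and 8.87, 8.05, 9.24 and 8.25 in bystander cells. In experiment 4 the exposed arrays were near their control by probe 1 and well below it by probe 2. COL6A2 probe 1 read 14.19, 13.08, 14.40 and 14.76 in the control dishes, 13.20, 13.18, 14.25 and 13.65 in irradiated cells and 14.02, 12.68, 14.46 and 13.22 in bystander cells. Its probe 2 read 11.01, 11.04, 11.96 and 11.90 in the control dishes, 10.86, 10.83, 12.06 and 11.56 in irradiated cells and 11.26, 10.34, 12.03 and 11.09 in bystander cells. Experiment 3 was close to its control by both probes. COL6A3 read 17.16, 16.24, 15.95 and 16.28 in the control dishes, 16.09, 16.14, 16.56 and 15.87 in irradiated cells and 16.33, 16.32, 16.55 and 16.13 in bystander cells. All groups overlapped. The ratios ran from -0.58 (COL6A1 probe 2 in bystander cells, adjusted p = 0.298) to -0.07 (COL6A3 in bystander cells, adjusted p = 0.902).

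COL15A1, a multiplexin of the zone under basement membranes, fell at 0.5 h in both treatments by its more intense probe. That probe read 12.24, 12.11, 12.08 and 11.80 in the control dishes, 11.63, 11.21, 11.06 and 11.41 in irradiated cells and 11.54, 10.85, 10.76 and 11.83 in bystander cells. Irradiated arrays lay below all controls, and of the bystander arrays 1, from experiment 4 (11.83), reached the controls. The ratios were -0.73 in irradiated cells (adjusted p = 0.069) and -0.81 in bystander cells (adjusted p = 0.060), or 1.66-fold and 1.76-fold lower. Probe 2 read 10.90, 11.02, 10.14 and 9.99 in the control dishes, 10.17, 10.13, 9.76 and 9.86 in irradiated cells and 10.30, 9.45, 9.49 and 10.62 in bystander cells. The groups overlapped, and its ratios of -0.53 and -0.55 did not pass (adjusted p = 0.231 and 0.255). Each call of probe 1 was lost without experiment 1, 2 or 3, with leave-one-out ratios from -0.84 to -0.63 in irradiated and from -1.09 to -0.65 in bystander cells.

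COL18A1, the other multiplexin and the precursor of endostatin, fell at 6 h in irradiated cells by its less intense probe, which read 12.48, 11.995, 12.55 and 12.64 in the control dishes, 11.65, 11.16, 12.01 and 11.49 in irradiated cells and 12.04, 11.23, 12.28 and 11.55 in bystander cells. The irradiated array of experiment 3 (12.01) sat just above the lowest control and the rest below all controls. The ratio was -0.83 (SE 0.16, 1.78-fold lower, adjusted p = 0.027) in irradiated and -0.64 (adjusted p = 0.183) in bystander cells, and without experiment 4 it was -0.73 and no longer passed. The more intense probe read 17.40, 17.33, 17.001 and 16.61 in the control dishes, 16.73, 16.51, 16.82 and 16.10 in irradiated cells and 16.23, 16.86, 16.67 and 16.50 in bystander cells, a ratio of -0.55 (adjusted p = 0.105) in irradiated cells.

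COL14A1, a FACIT chain that binds fibril surfaces, was called lower in irradiated cells at 2 and 6 h by 1 of 3 probes. At 2 h that probe read 12.05, 11.89, 11.38 and 11.18 in the control dishes, 11.32, 11.64, 10.97 and 9.86 in irradiated cells and 11.92, 11.67, 10.86 and 10.15 in bystander cells. At 6 h it read 12.47, 11.69, 11.55 and 11.99 in the control dishes, 11.70, 11.30, 11.33 and 9.59 in irradiated cells and 11.48, 11.65, 11.39 and 10.64 in bystander cells. The groups overlapped at both times, but each irradiated and bystander array was below the control of its own experiment, and experiment 4 had the lowest exposed values. The ratios in irradiated cells were -0.68 at 2 h (adjusted p = 0.077) and -0.95 at 6 h (adjusted p = 0.096), the latter made of -0.77, -0.40, -0.22 and -2.41 in experiments 1 to 4. Without experiment 4 the 6 h ratio was -0.46, and it did not pass without any of the 4. The 2 h call was kept without experiment 4 (ratio -0.46) and lost without any other. Probe 2 read 10.12, 10.92, 10.32 and 9.44 in the control dishes, 10.18, 10.57, 9.70 and 8.91 in irradiated cells and 10.50, 10.63, 9.35 and 8.91 in bystander cells at 2 h. At 6 h it read 10.86, 11.59, 11.11 and 10.51 in the control dishes, 11.52, 11.55, 10.16 and 9.02 in irradiated cells and 10.29, 11.71, 10.17 and 9.74 in bystander cells. Probe 3 read 11.33, 10.72, 10.27 and 10.99 in the control dishes, 11.01, 10.79, 10.52 and 9.74 in irradiated cells and 11.05, 10.91, 10.61 and 9.66 in bystander cells at 2 h. At 6 h it read 11.12, 10.77, 10.08 and 11.18 in the control dishes, 10.45, 10.76, 10.17 and 9.23 in irradiated cells and 11.26, 10.10, 10.02 and 9.21 in bystander cells. By both probes the exposed arrays of experiment 4 were below its control at each time and the groups overlapped. Neither probe was called, with ratios in irradiated cells of -0.36 and -0.45 for probe 2 and -0.31 and -0.63 for probe 3. The 3 probes of this gene disagreed more than those of most genes, as given below.

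A pair of minor fibrillar chains rose at 0.5 h in both treatments. COL24A1, the chain of the minor fibrillar type XXIV, read 8.63, 8.64, 7.87 and 8.74 in the control dishes, 8.75, 9.08, 8.85 and 9.55 in irradiated cells and 8.93, 9.21, 8.85 and 9.39 in bystander cells. Every exposed array lay above every control, but the control of experiment 3 (7.87) was far below the other controls. The ratios were 0.59 in irradiated cells (adjusted p = 0.064) and 0.63 in bystander cells (adjusted p = 0.062), or 1.51-fold and 1.55-fold higher. COL11A2, a chain of type XI collagen of cartilage fibrils, read 6.23, 5.99, 5.86 and 6.69 in the control dishes, 6.62, 6.75, 6.25 and 7.21 in irradiated cells and 6.56, 6.61, 6.31 and 7.31 in bystander cells. The groups overlapped, though the exposed array was above its own control in 4 of 4 experiments. The ratios were 0.52 in irradiated cells (adjusted p = 0.076) and 0.51 in bystander cells (adjusted p = 0.090), and within slides, unpaired, the bystander difference ran from -0.08 to 0.95, the lowest setting experiment 2 against the control of experiment 4. Neither gene kept its direction over time: over the 12 comparisons COL24A1 ranged from -0.19 to 0.63 and COL11A2 from -0.24 to 0.52. Left without any 1 experiment the calls were lost, except that of COL11A2 in irradiated cells without experiment 3, with ratios from 0.46 to 0.75 and from 0.44 to 0.56 in irradiated and from 0.51 to 0.74 and from 0.47 to 0.56 in bystander cells.

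COL7A1, the chain of the anchoring fibril, rose at 24 h in irradiated cells and was the only collagen probe above 0 in all 12 comparisons. At 24 h it read 10.55, 11.19, 11.22 and 9.63 in the control dishes. It read 11.56, 12.13, 12.81 and 11.45 in irradiated and 11.65, 11.53, 12.43 and 11.50 in bystander cells. Every exposed array lay above every control, and the control of experiment 4 was the lowest. The ratio in irradiated cells was 1.34 (SE 0.22, 2.53-fold higher, adjusted p = 0.081), made of 1.01, 0.94, 1.59 and 1.82 in experiments 1 to 4. In bystander cells it was 1.13 (2.19-fold, adjusted p = 0.241), made of 1.10, 0.35, 1.21 and 1.87. Within slides, unpaired, the irradiated difference ran from 0.69 to 1.82. Its call was lost without any 1 experiment, with ratios from 1.18 to 1.47.

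At the earlier times the ratios of COL7A1 were 0.50, 0.27, 0.38, 0.87 and 0.69 in irradiated and 0.53, 0.48, 0.36, 0.78 and 0.49 in bystander cells (0.5, 1, 2, 4 and 6 h), none past the test. They were larger in experiments 3 and 4 than in experiments 1 and 2 at each of these times. At 4 h it read 11.67, 11.22, 10.88 and 9.90 in the control dishes, 11.63, 11.45, 12.20 and 11.84 in irradiated cells and 11.70, 11.71, 11.87 and 11.48 in bystander cells, and the ratios of the irradiated cells were -0.03, 0.24, 1.32 and 1.95. At 6 h it read 11.48, 11.78, 10.99 and 9.998 in the control dishes, 11.70, 11.70, 12.21 and 11.39 in irradiated cells and 11.76, 11.29, 12.07 and 11.09 in bystander cells. Before 24 h the ratios of experiments 1 and 2 in irradiated cells lay between -0.21 and 0.31, while the controls of experiment 4 were the lowest of each control set from 1 h on.

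**Figure D3:**
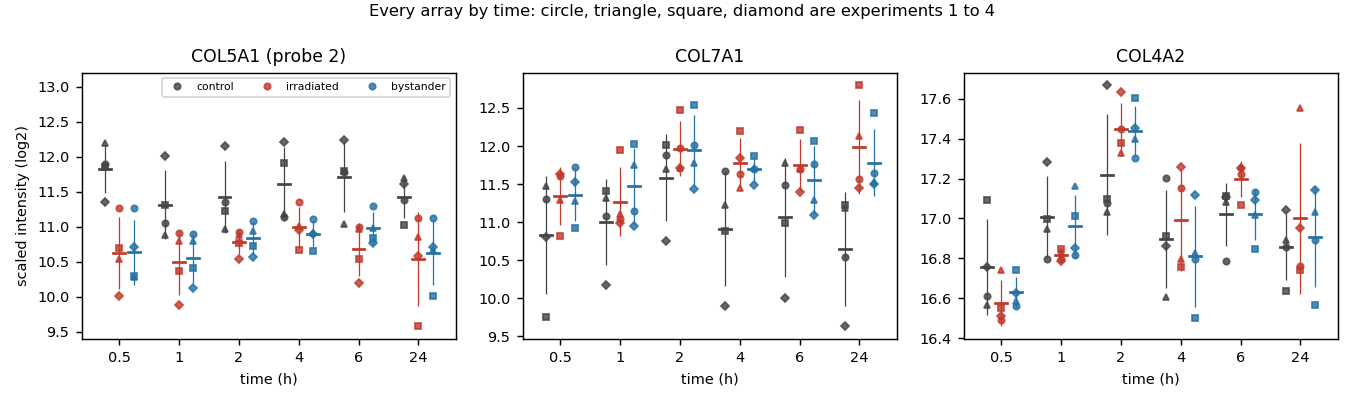
Scaled log2 intensity of COL5A1 (probe 2), COL7A1 and COL4A2 on each of the 72 arrays against time in hours, with grey for control, red for irradiated and blue for bystander cells, marker shapes for experiments 1 to 4, a horizontal bar for the group mean and a vertical line for 1 SD (n = 4). The exposed arrays of COL5A1 lie below all controls at 0.5 h (10.01 to 11.27 against 11.35 to 12.19), those of COL7A1 lie above all controls at 24 h (11.45 to 12.81 against 9.63 to 11.22), and those of COL4A2 overlap the controls at each time.

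Irradiated and bystander cells were not told apart by any collagen chain. By limma no collagen probe was called between them at any time, and 0, 2, 0, 0, 0 and 0 had an unadjusted p under 0.05 from the earliest to the latest time. Of all probes 11 (0.0434%) were called, all at 2 h. The irradiated minus bystander ratios of the 48 probes ran from -0.43 to 0.58, with medians from -0.03 to 0.06 at the 6 times, and the lowest adjusted p was 0.921. The 95% intervals of these differences reached from -1.06 to 1.22 at the widest, so the missed threshold does not show that the groups were alike. For COL5A1 probe 2 at 0.5 h the interval was -0.50 to 0.48, and for COL7A1 at 24 h it was -0.27 to 0.69. A test of whether the ratio to control changed between the 6 times called no collagen probe in either treatment (limma F test, lowest adjusted p 0.81 in irradiated cells), with 1 and 0 of 48 at an unadjusted p under 0.05, against 0.0831% and 0.00396% of all probes called.

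Averaged over the 6 times, which was added after the values by time had been seen, more chains passed. Each experiment's 6 arrays of a treatment were averaged and the same model was fitted to the 12 averages. In irradiated cells 18 of 48 probes were called (17 lower, 1 higher), where 27.3% of all probes were called (14% lower, 13.3% higher). In bystander cells 12 were called (11 lower, 1 higher) against 13.3% of all probes (6.89% lower, 6.45% higher). Between irradiated and bystander cells none was called (0.00395% of all probes, and 0 of 48 at an unadjusted p under 0.05). The largest average was that of COL5A1, -0.74 and -0.87 in irradiated cells (adjusted p = 0.042 and 0.027) and -0.74 and -0.80 in bystander cells (adjusted p = 0.072 and 0.056). By experiment probe 1 gave -0.33, -0.14, -1.05 and -1.43 in irradiated cells, so experiments 3 and 4 held most of it.

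Among the other fibrillar chains COL1A1 averaged -0.52 in irradiated (adjusted p = 0.080) and -0.58 in bystander cells (adjusted p = 0.094). COL3A1 averaged -0.47, -0.61 and -0.52 by its 3 probes in irradiated cells (adjusted p = 0.051, 0.048 and 0.069), and in bystander cells probe 1 was called (-0.43, adjusted p = 0.093). COL1A2 fell in irradiated cells (-0.45 and -0.43, adjusted p = 0.073 and 0.070), and COL11A1, the type XI chain found with type V in noncartilage fibrils, in bystander cells (-0.36, adjusted p = 0.097). By class, 8 of 17 fibrillar probes fell in irradiated cells, from the genes COL1A1, COL1A2, COL3A1 and COL5A1 alone, and 5 of 17 in bystander cells. All 4 multiplexin probes, those of COL15A1 and COL18A1, fell in both. Of all probes 14% were called lower on this average in irradiated and 6.89% in bystander cells. COL15A1 averaged -0.62 in irradiated (adjusted p = 0.030) and -0.63 in bystander cells (adjusted p = 0.053) and, by probe 2, -0.47 in irradiated (adjusted p = 0.062) and -0.47 in bystander cells (adjusted p = 0.092). COL18A1 averaged -0.34 and -0.44 in irradiated and -0.32 and -0.35 in bystander cells. Both probes of COL13A1, a transmembrane collagen of cell adhesions, fell in irradiated cells (-0.48 and -0.50, adjusted p = 0.054 and 0.056) and were not called in bystander cells (-0.40 and -0.44).

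COL6A2 fell in both treatments by probe 1 (-0.44 and -0.36, adjusted p = 0.041 and 0.094), and COL6A1 in bystander cells by probe 2 (-0.39, adjusted p = 0.087). Of the 9 FACIT probes 2 fell in irradiated cells and none in bystander cells, both of COL14A1 (-0.60 for probe 1 and -0.46 for probe 3, adjusted p = 0.056 and 0.086). None of the 10 network-forming probes was called in either treatment, and their medians were -0.02 and 0.00. COL7A1 rose in both (0.68 and 0.63, adjusted p = 0.046 and 0.083), with 0.26, 0.12, 1.03 and 1.29 in irradiated cells of experiments 1 to 4. No class was tested against another.

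These averages leaned on single times and experiments. Without 0.5 h, 2 collagen probes were called in irradiated cells (COL5A1 probe 2 at -0.80 and COL7A1 at 0.71) and 0 in bystander cells, while over all probes the number called went from 6910 to 2023 and from 3379 to 148. Without experiment 3 none was called in either treatment, with 653 and 128 of all probes called. Without experiments 1, 2 and 4, each left out alone, 11, 19 and 5 collagen probes were called in irradiated and 7, 0 and 2 in bystander cells, against 25%, 23.6% and 6.95% and 18.3%, 0.268% and 2.37% of all probes. No called average changed sign in any of these. Where a spot was missing, the average was taken over the remaining times, which touched probe 2 of COL18A1 (1 array) and probe 1 of COL5A2 (6 arrays). Of 4 markers of the contractile state 3 were called lower on the average over all 6 times in each treatment. Of all probes 14% were called lower on it in irradiated and 6.89% in bystander cells. The ratios were -0.68 and -0.84 for ACTA2, -1.55 and -1.73 for MYH11 and -0.88 and -0.86 for DES in irradiated and bystander cells (adjusted p from 0.047 to 0.081). CNN1 was not called (-0.09 and -0.31, adjusted p = 0.779 and 0.333). The part of these markers in the collagen averages was not tested.

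**Figure D4:**
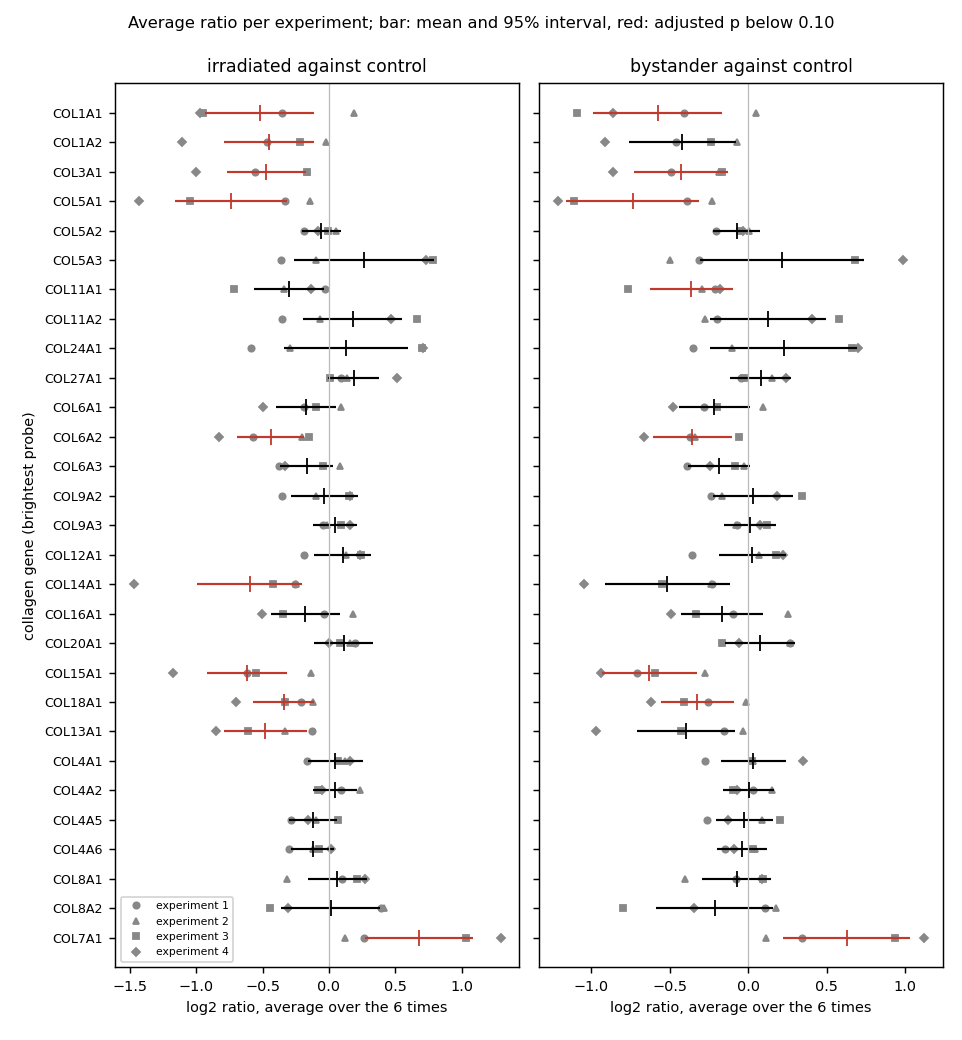
Log2 ratio to control averaged over the 6 times (horizontal axis) for the most intense kept probe of each of the 29 collagen genes, in irradiated cells (left) and bystander cells (right), with grey markers for experiments 1 to 4, a short vertical bar for the mean and a horizontal line for its 95% interval, drawn in red where limma's adjusted p was below 0.10. COL5A1 lies lowest at -0.74 in both panels and COL7A1 highest at 0.68 and 0.63, while the basement membrane chains COL4A1, COL4A2, COL4A5 and COL4A6 lie near 0.

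Of the chains described above, COL1A1 ranged over the 12 comparisons from -0.82 to -0.20, COL1A2 from -0.70 to -0.23 and -0.54 to -0.26, and COL5A2 from -0.16 to 0.24, -0.41 to -0.03 and -0.21 to 0.24 by probe. Probes 1 and 3 of COL3A1 ranged from -0.75 to -0.27 and -0.77 to -0.23. COL6A1 ranged from -0.40 to -0.02 and -0.58 to -0.08, COL6A2 from -0.70 to -0.15 and -0.54 to -0.01, and COL6A3 from -0.39 to 0.06. The multiplexins stayed below 0, COL15A1 from -0.81 to -0.40 and -0.55 to -0.35 and COL18A1 from -0.55 to -0.22 and -0.83 to -0.19. Most other kept chains were not called at any time or on the average, and they are given by the range of their mean ratios over the 12 comparisons. Of the basement membrane chains, COL4A1 ranged from -0.26 to 0.22 and from -0.34 to 0.26, and COL4A2, its partner in the same trimer, from -0.19 to 0.23. COL4A5 ranged from -0.30 to 0.12, -0.53 to 0.20 and -0.31 to 0.16 by its 3 probes, and COL4A6 from -0.31 to 0.20 and -0.09 to 0.16. COL8A1 and COL8A2, the chains of a short-chain network of vessel walls and cornea, ranged from -0.29 to 0.33 and from -0.53 to 0.40. These 6 genes lay on both sides of 0. Among FACIT chains the ranges were -0.33 to 0.30 for COL9A2, -0.08 to 0.19 for COL9A3, -0.19 to 0.20 and -0.08 to 0.23 for COL12A1, -0.42 to -0.01 for COL16A1 and -0.17 to 0.35 for COL20A1. Of these COL16A1 alone stayed below 0 throughout. COL13A1 and COL11A1, called on the average alone, stayed below 0 too, COL13A1 from -0.64 to -0.18 and from -0.69 to -0.23 and COL11A1 from -0.77 to -0.00491. COL27A1, a fibrillar chain of cartilage, ranged from -0.18 to 0.46 and from -0.50 to 0.15. COL5A3, the remaining chain of type V, ranged from -0.42 to 1.00, its highest value at 4 h in irradiated cells (adjusted p = 0.22).

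The 13 genes with no probe kept were COL2A1 of cartilage, the type IV chains COL4A3 and COL4A4, COL6A6, COL9A1, COL10A1, COL17A1 of the epithelial hemidesmosome, COL19A1, COL21A1, COL22A1, COL23A1, COL25A1 and COL29A1. Single probes of COL6A3, COL20A1 and COL27A1 also fell outside the limit, the first at 72.2% of spots well above background. For these a level could not be given, which does not show that the RNA was absent. No collagen probe was saturated on any array, and over the 24 control arrays the kept probes had a median SD of 0.45 (log2), against 0.41 for all probes.

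Probes of 1 gene gave similar ratios for most of the called genes, though those of COL6A1 tracked each other weakly. The median absolute difference between probes, over the 24 irradiated ratios of single experiments and times, was 0.15 for COL18A1 (23 ratios), 0.26 for COL6A2, 0.29 for COL6A1, 0.11 for COL13A1, 0.21 for COL1A2, 0.22 for COL5A1, 0.26 for COL15A1 and 0.16 to 0.30 for COL3A1. It was larger for COL14A1, 0.31 to 0.80, and for COL27A1, 0.60. The Pearson r of the same ratios was 0.36 for COL6A1, 0.67 for COL18A1, 0.23 to 0.68 for COL14A1 and -0.09 for COL27A1. For the rest of these genes it ran from 0.78 to 0.98. Probe 2 of COL14A1 had ratios from -0.55 to 0.32, on both sides of 0, while probes 1 and 3 stayed below 0, from -0.95 to -0.32 and from -0.65 to -0.22. What each probe targets within its gene was not examined here. Probes of the genes with 1 kept probe, COL7A1 among them, have no second reading.

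The genes that build collagen fibres were read from lists, each gene by its most intense probe, at the same call rule and against the same background shares. At 0.5 h those shares were 4.1% lower and 5.74% higher in irradiated and 2.68% and 4.15% in bystander cells. No gene of these lists was called at 1, 4 or 24 h. Of 16 genes for folding and modification of the chains 15 were tested, and at 0.5 h 3 fell and 1 rose in irradiated cells and 3 fell in bystander cells, with list medians of -0.25 and -0.29. FKBP10, a prolyl isomerase chaperone of procollagen, gave the largest ratio, -2.12 at 0.5 h in irradiated cells (adjusted p = 0.044; -0.65, -2.56, -3.62 and -1.65 in experiments 1 to 4) and -1.97 in bystander cells (adjusted p = 0.057), and again -2.12 and -1.75 at 6 h (adjusted p = 0.006 and 0.043). PLOD1, a lysyl hydroxylase, fell at 0.5 h (-0.56 and -0.59), as did GLT25D1, which adds galactose to hydroxylysine (-0.54 and -0.53). PLOD2, the lysyl hydroxylase that acts on telopeptides, rose in irradiated cells, by 0.79 at 0.5 h and 0.73 at 6 h. On the average over times FKBP10 gave -1.89 and -1.70, and SERPINH1, the collagen-specific chaperone HSP47, -0.45 and -0.40 (adjusted p = 0.039 and 0.082). LEPRE1 was also called lower in both treatments (-0.25 and -0.27), while PLOD2 was called higher in irradiated cells (0.53, adjusted p = 0.082). Of the 52 calls on that average over the pathway and marker lists, 12 were kept without 0.5 h.

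Of 8 genes for propeptide removal 5 were tested, and 3 fell at 0.5 h in irradiated and 2 in bystander cells (list medians -0.72 and -0.60). ADAMTS2, the N-proteinase, gave -0.72 and -0.86. PCOLCE, an enhancer of the C-proteinase, gave -0.89 and -0.82 and BMP1, the C-proteinase itself, -0.75 in irradiated cells, and both fell again at 6 h in irradiated cells (-0.98 and -0.77). In bystander cells the ratios of BMP1 at 0.5 h (-0.60) and of PCOLCE and BMP1 at 6 h (-0.85 and -0.58) did not pass. ADAMTS14, a related N-proteinase, rose at 2 h in irradiated cells, by 0.54, while its bystander ratio of 0.43 did not pass. All 5 crosslinking enzymes were tested, and 3 fell at 0.5 h in each treatment: LOXL2 with ratios of -0.89 and -0.97 (adjusted p = 0.023 and 0.012), LOXL3 with -0.53 and -0.56 and LOXL4 with -0.69 and -0.83. LOX itself rose in irradiated cells at 6 h, by 0.71 (adjusted p = 0.078). In bystander cells its ratio was as large, 0.72, but did not pass (adjusted p = 0.225).

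None of the 8 fibril partners was called by limma at a single time, 7 or 8 being tested and 0 to 3 having an unadjusted p under 0.05. Their medians at 0.5 h were -0.35 and -0.34. On the average over times BGN, the proteoglycan biglycan, gave -0.63 and -0.54 (adjusted p = 0.035 and 0.078). SPARC, a collagen-binding matricellular protein, lacked a value on many arrays. Its average over the values left was called lower by limma (-0.73 and -0.77, adjusted p = 0.069 and 0.093), but the times it covers may differ between the groups. Of 8 collagen receptor genes 7 were tested. ITGA2, an integrin chain that binds collagen, rose at 0.5 h (0.57 and 0.63) and in irradiated cells at 6 h (0.56, adjusted p = 0.082), while DDR2, a receptor tyrosine kinase for fibrillar collagen, and MRC2, an endocytic collagen receptor, fell at 6 h in irradiated cells (-0.94 and -0.93). In bystander cells at 6 h ITGA2 (0.28), DDR2 (-0.72) and MRC2 (-0.75) did not pass. Of 8 genes of TGF-β signalling and its early targets, SMAD3, which carries the signal, fell at 0.5 h (-0.55 and -0.64), and TGFB3, a ligand, fell in irradiated cells at 2 and 6 h (-0.73 and -1.24). The target CTGF rose in irradiated cells at 6 h (0.77, adjusted p = 0.069). On the average over times 4 of the 8 fell and 1, CTGF, rose in irradiated cells (0.49, adjusted p = 0.097), and 3 fell in bystander cells. Of all probes 14% were called lower and 13.3% higher on that average in irradiated cells, and 6.89% lower and 6.45% higher in bystander cells. Of 107 calls in all over the pathway and marker lists, 27 were kept without experiment 2 and 0 without the pairing, and 0 changed sign.

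Markers of the contractile, smooth muscle-like state fell beside the collagens at 0.5 h. All 4 genes of that list (ACTA2, MYH11, CNN1, DES) were detected. In irradiated cells 3 of 4 fell, with ratios of -1.63 for ACTA2 (smooth muscle actin), -2.02 for MYH11 and -1.31 for DES. The ratio of MYH11 was made of -1.02, -0.65, -1.74 and -4.69 in experiments 1 to 4. In bystander cells 4 of 4 fell, with -1.93 for ACTA2, -2.35 for MYH11, -1.03 for CNN1 and -1.20 for DES. By experiment MYH11 gave -1.18, -0.66, -2.86 and -4.70 there and CNN1 -0.74, -0.59, -0.54 and -2.23. Experiment 4 was the lowest for both. Of all probes 4.1% were called lower in irradiated and 2.68% in bystander cells at 0.5 h. The summed intensity of the list, in which ACTA2 had the highest, was 79709, 76797, 60653 and 34330 in the controls of experiments 1 to 4 at 0.5 h, 34888, 33054, 35034 and 6332 in irradiated cells and 27624, 26317, 26975 and 6314 in bystander cells. At 6 h it was 36686, 33130, 28656 and 38805 in controls, 54928, 52239, 11692 and 41419 in irradiated cells and 41420, 40608, 9641 and 57329 in bystander cells, so it was above control in 3 of 4 experiments there. Relative to their own controls the members differed at 6 h in irradiated cells, with DES called lower (-0.90, adjusted p = 0.083, below control in 4 of 4 experiments) and ratios of -1.80 for MYH11, -0.13 for ACTA2 and 0.53 for CNN1 that did not pass. The fibroblast markers, DCN the most intense, had median ratios of -0.32 and -0.39 at 0.5 h, and their summed intensity over all times had a median of 481904 in control, 429612 in irradiated and 400282 in bystander arrays. Among them THY1 fell at 0.5 h (-1.07 and -1.10), and PDGFRB fell while FAP rose at 6 h in irradiated cells (-0.94 and 0.81). CD68, a lysosomal marker of macrophages that fibroblasts also express, rose at 0.5 h by 0.54 and 0.55, and in irradiated cells at 6 h by 0.52. It had the highest intensity of the leukocyte list, whose defining gene PTPRC was not kept. The other kept genes of that list, CD14 and CD3E, were not called. Their ratios at 0.5 h were -0.06 and -0.29 in irradiated and 0.03 and -0.03 in bystander cells. Averaged over the times they were 0.002 and 0.006 in irradiated and 0.01 and 0.04 in bystander cells. The summed intensity of that list was above its control in irradiated cells of 4 of 4 experiments at each time but 1 h, and over all times its median was 728 in control, 878 in irradiated and 818 in bystander arrays. The epithelial list had medians of 648, 558 and 581 and the endothelial list 7478, 7691 and 8298 in the same order. The part of these shifts in the collagen ratios was not tested.

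For the genes that stood apart, the bases before the RefSeq transcription start are shown, since COL5A1 and COL15A1 fell together, COL7A1 rose, and COL4A1 and COL4A2, which stayed near control, are divided by 1 short shared stretch. The sequences are those of RefSeq on GRCh38.p14, and the set of promoter windows used here covered 20 of the 29 genes. The words GGGCGG (GC box), CCAAT and TATAAA were searched on both strands and stand in capitals, a reverse match as it reads on the printed strand. They do not overlap one another.
COL5A1, chr9:134641553-134641802, plus strand: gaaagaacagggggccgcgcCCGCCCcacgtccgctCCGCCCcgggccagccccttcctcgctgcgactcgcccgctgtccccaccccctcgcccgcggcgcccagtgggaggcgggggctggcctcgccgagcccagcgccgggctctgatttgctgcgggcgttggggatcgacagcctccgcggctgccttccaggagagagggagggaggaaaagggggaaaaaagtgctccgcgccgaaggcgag
COL15A1, chr9:98943657-98943906, plus strand: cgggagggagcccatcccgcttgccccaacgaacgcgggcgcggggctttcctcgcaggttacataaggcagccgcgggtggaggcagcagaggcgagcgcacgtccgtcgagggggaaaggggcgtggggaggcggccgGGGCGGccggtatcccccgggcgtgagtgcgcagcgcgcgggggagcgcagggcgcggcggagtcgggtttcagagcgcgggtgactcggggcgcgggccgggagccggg
COL7A1, chr3:48595330-48595579, minus strand: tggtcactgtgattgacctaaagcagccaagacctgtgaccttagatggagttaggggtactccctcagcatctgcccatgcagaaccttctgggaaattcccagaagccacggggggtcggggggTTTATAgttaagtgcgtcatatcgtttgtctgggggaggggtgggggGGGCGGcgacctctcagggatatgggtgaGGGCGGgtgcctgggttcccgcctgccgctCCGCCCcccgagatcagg
COL4A1 and COL4A2, chr13:110307158-110307283, plus strand: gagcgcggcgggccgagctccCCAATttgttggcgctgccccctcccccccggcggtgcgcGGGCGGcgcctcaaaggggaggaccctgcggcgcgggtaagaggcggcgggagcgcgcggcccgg
The window of COL5A1 holds 2 GC boxes, that of COL15A1 1 and that of COL7A1 3, and 42.6% of 35116 windows of 250 bases held at least 1. COL7A1 has 1 TATAAA, on the reverse strand, as 10.7% of windows do, and none of these 3 has CCAAT, which 32% hold. The 126 bases between the starts of COL4A1 and COL4A2, which are read in opposite directions, hold 1 GC box and 1 CCAAT, found in 34.6% and 21.1% of windows of that length. The GC content was 74%, 76.8%, 60.8% and 80.2% in that order, against a median of 58% over windows of 250 bases. The last value is that of the 126 bases, for which no median of that length was computed. A match is a description of the letters and shows no binding.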

How the data were processed

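Agilent one-color arrays (Cy3) were analysed, 72 in all. The authors deposited scanner output in which the intensity of a spot had been background-subtracted and spatially detrended by Feature Extraction, with no normalization between arrays. Their table of log2 values, also deposited, matched log2 of these intensities to within 0.01 for 91.7% of values and was used as an alternative, with column medians from 8.15 to 9.65. Here control spots were left out, non-uniform spots (at most 0.544% of an array) set to missing, the spots of a probe averaged, each array scaled to the same 75th percentile (log2 9.19 to 11.20 before), values floored at 4 and log2 taken. Signals carry no counting error, and the 4 experiments limit the precision.

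For each time limma 3.58.1 (R 4.3.3) fitted treatment and experiment to 12 arrays (6 residual degrees of freedom, intensity trend), with Benjamini-Hochberg adjustment over the probes with at least 90% of spots well above background (25289 to 25327 tested) and calls at an adjusted p below 0.10. The pairing by experiment comes from the study's methods, and same-numbered arrays deviated together (r above 0.1) in 12 of 12 pairs at 0.5, 1, 2 and 24 h and 10 of 12 at 4 and 6 h. Many such arrays also shared a slide, and the irradiated and bystander cells a dish. These correlations therefore cannot tell a shared pool of cells from a shared slide or dish. An F test over 72 arrays compared the ratios between times. Values were given on every array for COL1A1, COL1A2, COL3A1, COL5A1, COL5A2, COL6A1, COL6A2 and COL6A3 at the times when one of them was called and for every called gene, brightest probe first, and every kept gene was named with its range. The members, lists and tests were chosen with earlier results of these data known. For 1 further gene of the TGF-β list the values are not reported here. Gene symbols are those of the array annotation. Alternatives covered scaling, background correction, the authors' table, the filter, the blocks, 1 fit over all times and each experiment left out. The average over times, the fits on it and those without 0.5 h were added after the data had been seen. Scripts were tested on simulated data. Figures were drawn with matplotlib 3.10.9 (Python 3.11.15).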

Additional observations from a re-analysis of the deposited data

Results flagged for a closer look

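The control array of experiment 3 at 0.5 h read 7.87 for COL24A1 (log2 intensity), while the other 3 controls lay between 8.63 and 8.74, a gap that exceeded Dixon's 95% critical value for 4 samples. It enters the COL24A1 ratios at 0.5 h in both treatments. Among 49 sets of 4 arrays looked at, 1 was marked in this way, and chance alone marks about 1 set in 20.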

How the results depend on the processing

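No called ratio of a collagen probe changed sign under any alternative, but no call was kept under all of them. Of the 18 calls at single times, 9 of 17 were kept with the authors' table, 5 without the filter on dim probes, 14 with normexp background correction, 15 with quantile normalization, 9 unscaled, 12 in 1 fit over 72 arrays, 8 with slide as a further block and 0 without the pairing by experiment. The number of collagen probes called moved as follows, with the share of all probes called in parentheses. The cause was not tested, and without the filter the number of probes tested changes too. With the authors' table it was 2 (2.18%) in irradiated and 2 (1.46%) in bystander cells at 0.5 h and, on the average over times, 11 (13.4%) and 2 (1.54%). Without the filter it was 2, 0, 1 and 0 at 0.5, 2, 6 and 24 h (1.7%, 2.28%, 1.52% and 0.039%) and 8 on the average (11.1%) in irradiated cells, and 2 at 0.5 h (1.74%) and 1 on the average (2.44%) in bystander cells. Without the replicate block, where at most 0.505% of all probes were called, it was 0 in all of these (0.5, 2, 6 and 24 h and the average in irradiated cells, 0.5 h and the average in bystander cells), where 7, 2, 7, 5 and 10 and then 5 and 7 collagen probes had an unadjusted p under 0.05. With normexp it was 6 (2.02%) at 2 h in irradiated cells, and 9 (7.84%) at 0.5 h, 6 (1.4%) at 2 h and 22 (31.9%) on the average in bystander cells. In 1 fit over all arrays it was 0, 1, 15 and 5 at 2, 4, 6 and 24 h in irradiated (0.237%, 4.07%, 26% and 6.87%) and 1, 2 and 2 at 4, 6 and 24 h in bystander cells (2.7%, 7.01% and 3.73%). Quantile normalization gave 5 (6.93%) at 2 h in irradiated cells. Slide beside the replicate block gave 2, 1, 0, 1 and 7 at 0.5, 1, 2, 4 and 6 h in irradiated cells (1.1%, 1.77%, 0.126%, 2.16% and 9.42%) and 1 (0.486%) at 0.5 h in bystander cells. Unscaled values gave 3, 25, 13 and 0 at 0.5, 2, 6 and 24 h (0.822%, 27.3%, 17.5% and 0.237%) and 28 (33.2%) on the average in irradiated cells, and 3 (0.985%) at 0.5 h and 3 (14.4%) at 4 h in bystander cells. Without 0.5 h the average gave 2 (7.99%) and 0 (0.584%). With 1 experiment left out the number ran from 0 to 3, 0 to 0, 0 to 9, 0 to 1, 0 to 4 and 0 to 0 at the 6 times and 0 to 19 on the average in irradiated cells, from 0 to 5 at 0.5 h, 0 to 5 at 2 h, 0 to 0 at 1, 4, 6 and 24 h and 0 to 7 on the average in bystander cells, and stayed 0 between irradiated and bystander cells. The 9 and 5 at 2 h came without experiment 4, where 19.4% and 12.3% of all probes were called. Of the 30 calls on the average, 13 of 28 were kept with the authors' table, 29 with normexp, 28 with quantile normalization, 25 unscaled, 9 without the filter and 2 without 0.5 h. Probes removed as dim have no usable level here.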
